A study of Homo sapiens with 12 samples.

Results

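The genes described here are 10 genes of the contractile actin cytoskeleton, chosen by gene symbol: ACTA2, TAGLN, CNN1, CNN2, TPM1, TPM2, TPM4, MYL9, ACTN1 and CALD1. All 10 were found among the 19907 gene symbols counted, and all 10 passed the filter on low reads that left 18579 genes to test. The RNA came from MDA-MB-231 cells, an established triple-negative breast cancer line with a mesenchymal shape, in which the glucocorticoid receptor (GR, gene NR3C1) was edited by CRISPR. The S134A-GR cells are 1 knock-in clone in which both copies of the receptor gene encode alanine in place of serine at the phosphorylation site Ser134, together with a silent change at the guide's PAM. The wt-GR cells are 1 clone from the same editing that kept the normal receptor, so the effect of the mutation and the history of a clone cannot be told apart in any comparison of the lines. The cells of each line spent 18 h in medium with 1% charcoal-stripped serum. Vehicle (Veh) or TGFβ1 at 10 ng/mL was then added, RNA was taken after 6 h, and no glucocorticoid was given. Each of the 4 groups had 3 libraries. The labels do not say whether these were separate cultures, so the p-values measure the spread between these libraries, which may be technical.

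Contraction in a non-muscle cell is carried by stress fibres, bundles of actin filaments pulled by myosin II. Tropomyosins (TPM1, TPM2, TPM4) lie along the actin filament and set which proteins may bind it, while calponins (CNN1, CNN2), transgelin (TAGLN) and caldesmon (CALD1) bind the filament beside them and restrain or stabilise it. ACTA2 is the smooth muscle actin of myofibroblasts, MYL9 is a regulatory light chain of myosin II, and ACTN1 is the α-actinin that crosslinks filaments. Many of these genes are textbook targets of SRF, a transcription factor that binds the CArG box together with coactivators of the MRTF family, which are held back by free actin monomers. TGFβ is a classical inducer of this programme in fibroblasts and in epithelial cells that become mesenchymal.

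The promoters are shown first, because the CArG box is the DNA element this family is known for. The sequences are RefSeq's, from a table on build GRCh38.p14 that held the window from 250 bases before to 50 after the start for 8 of the 10 genes. TAGLN and MYL9 had no entry. Only 1 window per gene was used, and the start named below is that of this entry. Other starts of the same gene were not searched. In the GENCODE annotation TPM1, TPM4 and CALD1 begin upstream of their windows, at chr15:63042620, chr19:16067021 and chr7:134744252. A CArG box, searched on both strands, was found in 2 of these 8 windows, CNN2 and TPM4, and in 1.29% of all 35116 promoters in the table. The 60 bases around each box are printed with the box in capitals, CNN2 at chr19:1026494-1026553 and TPM4 at chr19:16067340-16067399, both on the plus strand.
CNN2: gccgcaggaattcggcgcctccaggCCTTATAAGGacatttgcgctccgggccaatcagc
TPM4: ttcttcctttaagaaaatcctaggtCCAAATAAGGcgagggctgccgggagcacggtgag

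The box of CNN2 begins 89 bases before the start and that of TPM4 173 bases before it. The TEAD motif GGAATG was found in CALD1, 194 bases before the start, and in 14.0% of all promoters. It is printed in capitals within chr7:134779413-134779472, plus strand.
CALD1: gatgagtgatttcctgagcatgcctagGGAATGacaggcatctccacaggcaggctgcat

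None of the 8 windows held the SMAD palindrome GTCTAGAC, the AP-1 motif TGANTCA or the loose GR motif ACANNNTGT. These were present in 0.202%, 7.71% and 5.37% of all promoters. All of these are matches of letters in a short window, and a window without a match says nothing about the factor. For CNN1 and TPM1, which rose under TGFβ1, and for ACTA2, which did not, the 60 bases just before the start are printed for comparison, with no motif marked. They lie at chr19:11538791-11538850 (plus strand), chr15:63048429-63048488 (plus strand) and chr10:88991338-88991397 (minus strand). The bases of CNN1 and TPM1 lie inside the annotated genes, which begin at 11538767 and 63042620. Those of ACTA2 lie at the outer 5' end of its annotated span. Other starts of ACTA2 were not searched, so its lack of a match holds for this window only.
CNN1: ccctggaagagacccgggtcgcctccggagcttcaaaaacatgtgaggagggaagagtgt
TPM1: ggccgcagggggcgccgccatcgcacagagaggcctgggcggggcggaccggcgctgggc
ACTA2: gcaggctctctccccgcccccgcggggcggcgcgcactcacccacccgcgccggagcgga

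Values are normalized read counts, the reads of a gene divided by a library's size factor. Whole reads could be recovered from them in every library, and the libraries held 56362036 to 129832227 reads on genes. A count of 3 reads, taken as the floor, was worth 2.15 to 4.89 normalized counts. VIM, the mesenchymal filament gene, lay between 419832 and 533198 normalized counts in every library, whereas EPCAM, an epithelial gene, lay between 918 and 1093 in wt-GR cells and between 318 and 436 in S134A-GR cells. The mRNA of NR3C1 was lower in the S134A-GR line, with log2 fold changes of -0.41 under vehicle and -0.31 under TGFβ1, which does not check a substitution. PMEPA1, a TGFβ target, rose by 2.90 (wt-GR) and 2.18 (S134A-GR) on the log2 scale. The wt-GR Veh libraries 1 and 3 differed most among all replicate pairs, and the long genes MYH9 and TLN1 differed between them, with MYH9 at 230760 and 164589.

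The 10 genes covered a wide range of abundance. Per kilobase of the MANE Select transcript, the mean level in wt-GR Veh cells was 49522 normalized counts for TPM4, 16581 for ACTN1, 14981 for TPM1 and 8313 for CNN2. CALD1 (2196), MYL9 (1766) and TPM2 (1463) formed a middle group, followed by TAGLN at 240 per kilobase. ACTA2 at 46.5 and CNN1 at 25.1 per kilobase were the rarest. The order depends in part on which length is used. Divided by the length of all annotated exons, TPM1 stood at 1240, below MYL9 at 1752, and CNN1 (13.2) stood above ACTA2 (11.2). The raw reads behind ACTA2 were 28 to 158 per library and those behind CNN1 were 20 to 158, against 73854 to 190611 for TPM4, so the first pair carried the widest errors. All the read totals of the 10 genes together were a mean 0.262% ± 0.00276 of all reads in wt-GR Veh, 0.317% ± 0.000858 in wt-GR TGFβ1, 0.236% ± 0.0029 in S134A-GR Veh and 0.280% ± 0.000746 in S134A-GR TGFβ1 (SD, n = 3). In bulk RNA, more cells that express a gene and more RNA per cell cannot be told apart.

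**Figure D1:**
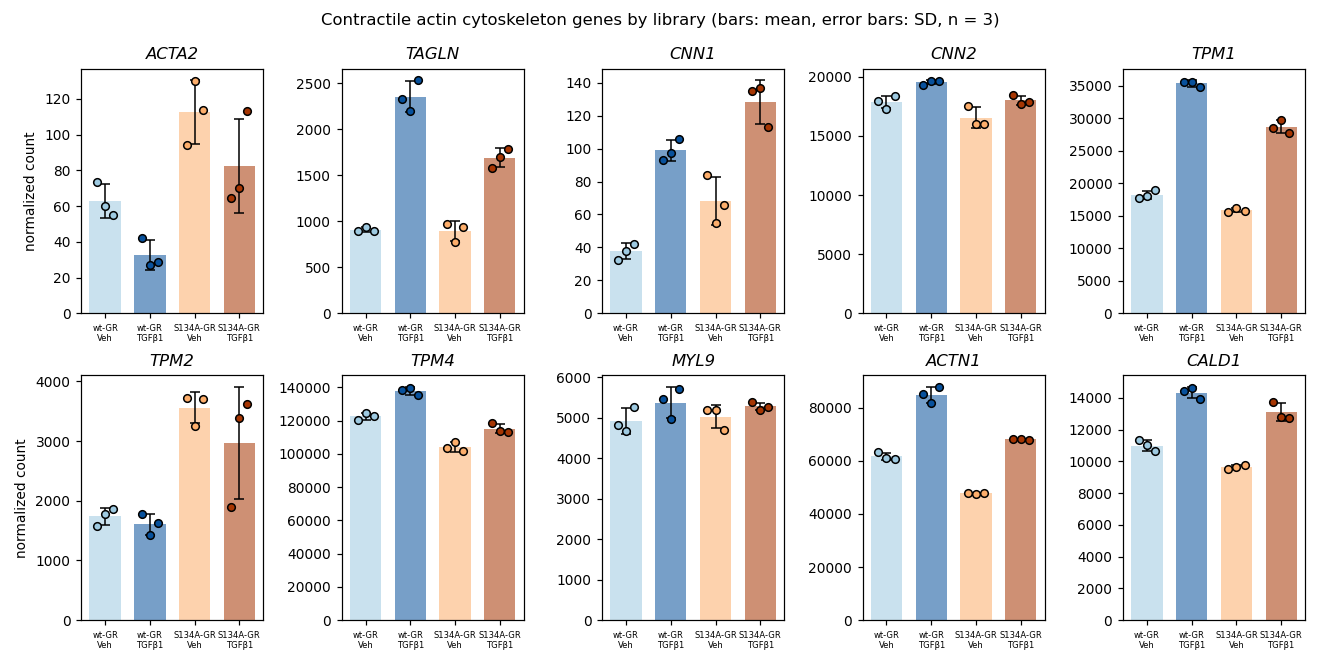
Normalized counts of the 10 genes on linear axes that start at 0, in panels with their own scales; points are the 3 libraries of each group, bars the mean and error bars the SD. TAGLN, CNN1 and TPM1 stand higher under TGFβ1 in both lines, TPM2 stands higher in S134A-GR cells, with 1 library at 1891 close to the wt-GR libraries, and MYL9 is nearly level.

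TGFβ1 raised most of these genes. In wt-GR cells 7 of the 10 genes were higher after 6 h of TGFβ1 (TAGLN, CNN1, CNN2, TPM1, TPM4, ACTN1 and CALD1), against 11.2% of all genes tested, and 1 was lower (ACTA2), against 9.82%. In S134A-GR cells those 7 genes were higher, against 10.0% of all genes, and none was lower, against 8.69%. A gene was called at an adjusted p under 0.05 in limma, with Benjamini-Hochberg adjustment over all 18579 genes. The median log2 fold change of the 10 genes was 0.28 in the wt-GR line and 0.29 in the S134A-GR line, and the medians of all genes were -0.00459 and -0.00972. In wt-GR cells 2 of the 10, TAGLN and CNN1, rose by 1 or more on the log2 scale, as did 1.18% of all genes there.

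TAGLN, which encodes the actin-binding protein transgelin, rose strongly. It measured 895, 937 and 894 normalized counts in the wt-GR Veh libraries and 2328, 2197 and 2534 in wt-GR TGFβ1. In S134A-GR cells it measured 969, 770 and 942 under vehicle and 1584, 1702 and 1789 under TGFβ1. The TGFβ1 libraries of both lines lay above all vehicle libraries, and those of wt-GR cells lay above those of S134A-GR cells. The log2 fold change was 1.37 (SE 0.0835, adjusted p = 3.27e-08) for wt-GR and 0.93 (SE 0.0835, adjusted p = 2.17e-06) for S134A-GR.

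CNN1, basic calponin, is a marker of differentiated smooth muscle and was rare here. It measured 32.6, 38.1 and 42.1 in wt-GR Veh and 93.3, 97.4 and 105.9 in wt-GR TGFβ1. It measured 83.9, 54.7 and 65.9 in S134A-GR Veh and 135.1, 136.7 and 113.0 in S134A-GR TGFβ1. Vehicle and TGFβ1 did not overlap within either line, and S134A-GR cells stood above wt-GR cells under the same treatment. The response was 1.38 (SE 0.191, adjusted p = 0.000121) for wt-GR and 0.92 (SE 0.191, adjusted p = 0.0036) for S134A-GR.

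CNN2, the calponin of non-muscle cells, was far more abundant than CNN1 and moved little. Its libraries measured 17917, 17324 and 18350 in wt-GR Veh, 19348, 19660 and 19628 in wt-GR TGFβ1, 17551, 16029 and 16014 in S134A-GR Veh, and 18445, 17725 and 17834 in S134A-GR TGFβ1. Each line had its TGFβ1 libraries above its vehicle libraries. The log2 fold changes were 0.13 (adjusted p = 0.0281) and 0.12 (adjusted p = 0.0385). The call in wt-GR cells was lost on leaving out any 1 of 5 libraries, and the call in S134A-GR cells on leaving out any 1 of 8.

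TPM1 was the tropomyosin that responded most. It measured 17703, 18020 and 18973 in wt-GR Veh and 35673, 35650 and 34804 in wt-GR TGFβ1. It measured 15584, 16235 and 15756 in S134A-GR Veh and 28564, 29734 and 27737 in S134A-GR TGFβ1. The 4 groups did not overlap at all, and the replicates were close together. The log2 fold change was 0.96 (SE 0.0359, adjusted p = 2.05e-10) for wt-GR and 0.85 (SE 0.0359, adjusted p = 8.18e-10) for S134A-GR.

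TPM4, the most abundant of the 10, rose by a small but reproducible amount. It measured 120337, 124632 and 122583 in wt-GR Veh, 138585, 139583 and 135140 in wt-GR TGFβ1, 103508, 107164 and 101672 in S134A-GR Veh, and 118557, 113892 and 113093 in S134A-GR TGFβ1. S134A-GR cells under TGFβ1 remained below wt-GR cells under vehicle in all libraries. The responses were 0.17 (adjusted p = 0.00227) and 0.15 (adjusted p = 0.00721).

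TPM2 did not pass the test under TGFβ1 in either line. Its log2 fold change was -0.12 (adjusted p = 0.712) for wt-GR and -0.32 (adjusted p = 0.265) for S134A-GR. The second value leaned on 1 library, and without S134A-GR TGFβ1 replicate 1 it was -0.0207.

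The balance among the tropomyosin genes therefore differed between the groups. Of the summed level of TPM1, TPM2, TPM3 and TPM4 per kilobase of MANE transcript, TPM1 took 19.9% ± 0.529 in wt-GR Veh and 30.4% ± 0.031 in wt-GR TGFβ1 (SD, n = 3). In S134A-GR cells its share was 19.5% ± 0.211 under vehicle and 28.8% ± 0.727 under TGFβ1. The share of TPM4 was 65.9% and 58.3% for wt-GR, and 62.9% and 56.9% for S134A-GR, although its own level rose. TPM2 took 1.94% ± 0.133 in wt-GR Veh and 4.47% ± 0.414 in S134A-GR Veh. Divided by all annotated exons, the share of TPM1 was smaller, 7.75% and 13% for wt-GR, and 7.32% and 11.8% for S134A-GR, and moved the same way. On that length the share of TPM4 moved little, 61.9% and 60.3% for wt-GR, and 57.1% ± 0.487 and 56.4% ± 1.53 for S134A-GR, where the libraries of the 2 treatments overlapped. These shares are descriptions and were not tested. TPM3, the fourth tropomyosin gene and not one of the 10, was called in none of the comparisons.

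**Figure D2:**
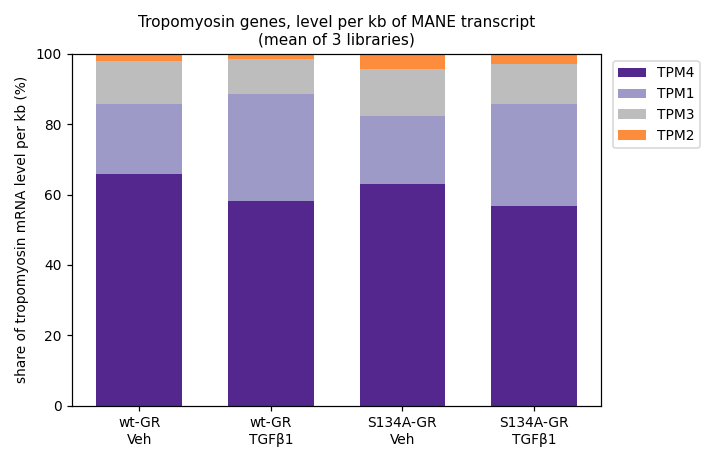
Share of each tropomyosin gene in the summed level per kilobase of MANE Select transcript (%), as the mean of 3 libraries in each group. The TPM1 segment is 19.9% and 19.5% in the vehicle groups and 30.4% and 28.8% in the TGFβ1 groups, and the TPM2 segment is widest in S134A-GR Veh at 4.47%.

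ACTN1 crosslinks actin filaments and anchors them at adhesions, and it rose in both lines. It measured 63333, 61017 and 60791 in wt-GR Veh and 85052, 81772 and 87679 in wt-GR TGFβ1. It measured 47921, 47696 and 48068 in S134A-GR Veh and 68224, 68328 and 67957 in S134A-GR TGFβ1. The 4 groups were fully separate. The responses were 0.46 (SE 0.0321, adjusted p = 1.29e-07) and 0.51 (SE 0.0321, adjusted p = 5.56e-08).

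CALD1, caldesmon, behaved like ACTN1 on a smaller scale. It measured 11336, 11017 and 10658 in wt-GR Veh, 14431, 14634 and 13968 in wt-GR TGFβ1, 9550, 9680 and 9747 in S134A-GR Veh, and 13743, 12832 and 12771 in S134A-GR TGFβ1. Vehicle and TGFβ1 were apart in both lines. The responses were 0.38 (adjusted p = 3.74e-06) and 0.44 (adjusted p = 1.14e-06).

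MYL9, the myosin light chain, was the flattest of the 10. Its libraries ran from 4676 to 5273 in wt-GR Veh, from 4957 to 5705 in wt-GR TGFβ1, from 4697 to 5200 in S134A-GR Veh and from 5186 to 5380 in S134A-GR TGFβ1. The groups overlapped in every comparison, and the group means spanned 0.13 on the log2 scale. Its responses were 0.13 (95% interval 0.00015 to 0.25, adjusted p = 0.156) and 0.07 (95% interval -0.05 to 0.20, adjusted p = 0.465). The first would be called without wt-GR Veh replicate 3 (adjusted p = 0.043) or without wt-GR TGFβ1 replicate 2 (adjusted p = 0.0484).

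ACTA2, the smooth muscle actin, went the other way. It measured 73.3, 60.2 and 54.8 in wt-GR Veh and 42.2, 27.1 and 28.5 in wt-GR TGFβ1. It measured 94.3, 129.8 and 114.0 in S134A-GR Veh and 64.7, 69.9 and 113.0 in S134A-GR TGFβ1. The wt-GR groups did not overlap, whereas the highest S134A-GR TGFβ1 library lay among the vehicle libraries. The log2 fold change was -0.94 (SE 0.25, adjusted p = 0.0152) for wt-GR and -0.48 (SE 0.25, adjusted p = 0.223) for S134A-GR. The call in wt-GR cells was lost without wt-GR Veh replicate 1 (adjusted p = 0.0586), wt-GR TGFβ1 replicate 2 (adjusted p = 0.0624) or wt-GR TGFβ1 replicate 3 (adjusted p = 0.0573).

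**Figure D3:**
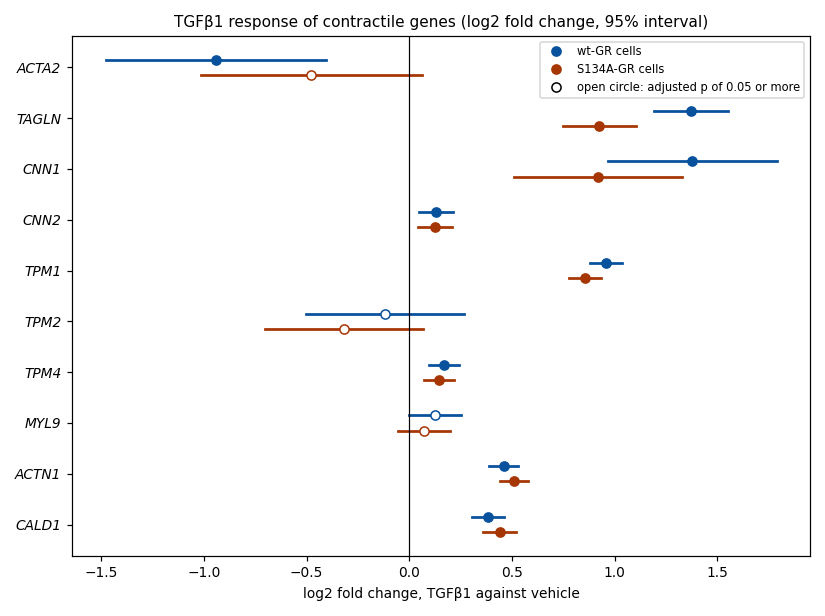
Log2 fold change of each gene under TGFβ1 against vehicle, with 95% intervals, for wt-GR (blue) and S134A-GR cells (brown); filled circles passed an adjusted p of 0.05. TAGLN and CNN1 lie at 1.37 and 1.38 in wt-GR cells and at 0.93 and 0.92 in S134A-GR cells, ACTA2 lies below 0, and the intervals of TPM2 cross 0 in both lines.

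Whether the lines responded differently was tested directly, as an interaction. By limma none of the 10 genes passed in either direction, while 0.167% of all genes passed with a higher response in S134A-GR cells and 0.248% with a lower one. At an unadjusted p under 0.05 there was 1 gene of the 10, TAGLN, against 9.30% of all genes. For TAGLN the response was smaller in S134A-GR cells by a log2 difference of -0.44 (95% interval -0.70 to -0.19, adjusted p = 0.198). Over all genes and both directions limma called 77. By edgeR, which called 78 genes in all, none of the 10 passed and 1 had an unadjusted p under 0.05, against 9.11% of all genes. By DESeq2, which called 211 genes in all, 1 of the 10 passed, again TAGLN, with a difference of -0.45 (adjusted p = 0.0192). Leaving out S134A-GR Veh replicate 2, the library in which TAGLN was lowest, gave -0.55 with limma (adjusted p = 0.0456). For TPM1 the difference was -0.10 (95% interval -0.21 to 0.00672) and for CNN1 it was -0.46 (95% interval -1.04 to 0.12). For ACTN1 it was 0.05 (95% interval -0.05 to 0.15), an interval narrower than those of TAGLN and CNN1.

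The lines differed in these genes before any TGFβ1 was added, and in both directions. Under vehicle 3 of the 10 were higher in S134A-GR cells (ACTA2, CNN1 and TPM2), where 25.0% of all genes were, and 5 were lower (CNN2, TPM1, TPM4, ACTN1 and CALD1), where 26.5% were. Under TGFβ1 2 were higher (ACTA2 and TPM2), against 23.1%, and 6 were lower (TAGLN, CNN2, TPM1, TPM4, ACTN1 and CALD1), against 25.7%. With an added limit of 1 on the absolute log2 fold change there was TPM2 under vehicle, with 5.06% of all genes, and ACTA2 under TGFβ1, with 3.88%. The median of the 10 genes was -0.07 under vehicle and -0.12 under TGFβ1, and those of all genes were 0.02 and 0.01.

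TPM2, a tropomyosin of contractile cells, differed most under vehicle. Its libraries measured 1581, 1776 and 1866 in wt-GR Veh and 3715, 3256 and 3708 in S134A-GR Veh. Under TGFβ1 they measured 1775, 1423 and 1620 for wt-GR, and 1891, 3394 and 3614 for S134A-GR. All S134A-GR libraries lay above the wt-GR libraries of the same treatment, but S134A-GR TGFβ1 replicate 1 lay close to them and far from its own group. The log2 fold change was 1.03 (SE 0.179, adjusted p = 0.000231) under vehicle and 0.83 (SE 0.179, adjusted p = 0.00143) under TGFβ1. Without that library the second value was 1.13.

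ACTA2 was higher in S134A-GR cells by 0.83 (SE 0.25, adjusted p = 0.0122) under vehicle and by 1.30 (SE 0.25, adjusted p = 0.000613) under TGFβ1. The libraries of the lines did not overlap under either treatment. The call under vehicle was narrowly lost without S134A-GR Veh replicate 2 (adjusted p = 0.0521). CNN1 was higher by 0.83 (adjusted p = 0.00219) under vehicle, and under TGFβ1 it gave 0.37 (95% interval -0.04 to 0.78, adjusted p = 0.13).

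The abundant genes were lower in S134A-GR cells. ACTN1 gave a log2 fold change of -0.37 under vehicle (adjusted p = 3.78e-07) and -0.31 under TGFβ1 (adjusted p = 1.82e-06). In the same order TPM4 gave -0.24 (adjusted p = 4.13e-05) and -0.26 (adjusted p = 1.87e-05). TPM1 gave -0.20 (adjusted p = 0.000295) and -0.30 (adjusted p = 7.74e-06), and CALD1 gave -0.19 (adjusted p = 0.000672) and -0.13 (adjusted p = 0.00971). CNN2 gave -0.11 (adjusted p = 0.0251) and -0.12 (adjusted p = 0.0203), and each of these calls was lost on leaving out any 1 of 4 libraries. Its libraries overlapped between the lines under vehicle. The comparisons under vehicle and TGFβ1 use separate libraries of the same 2 clones.

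TAGLN was level between the lines under vehicle, at -0.03 (95% interval -0.21 to 0.15, adjusted p = 0.787), whereas under TGFβ1 the S134A-GR libraries lay lower, at -0.48 (SE 0.0835, adjusted p = 0.000283). MYL9 gave 0.03 (95% interval -0.10 to 0.16) under vehicle and -0.02 (95% interval -0.15 to 0.10) under TGFβ1, neither of them called.

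**Figure D4:**
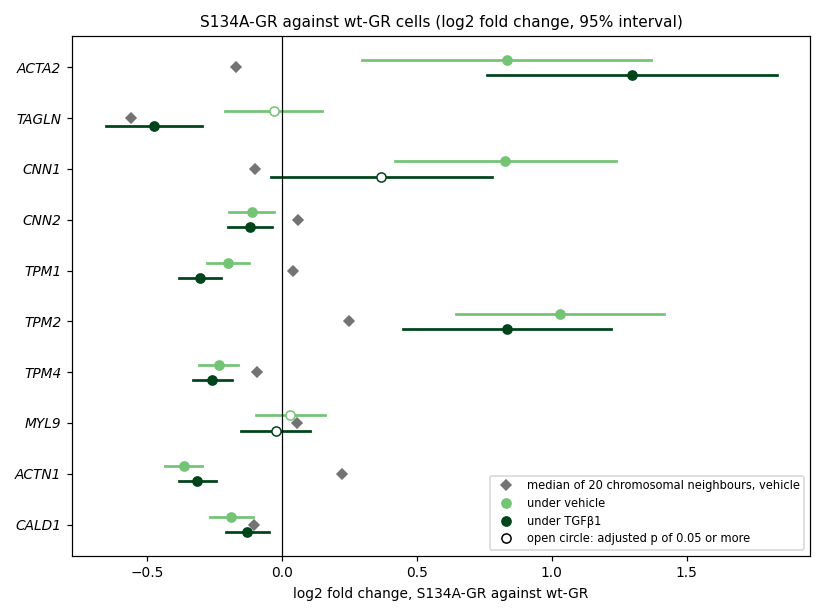
Differences of S134A-GR from wt-GR cells as log2 fold changes with 95% intervals, under vehicle (light green) and TGFβ1 (dark green); filled circles passed an adjusted p of 0.05, and grey diamonds give the median over the 20 nearest tested genes on the chromosome under vehicle. ACTA2 and TPM2 lie to the right at 0.83 to 1.30, ACTN1 lies to the left at -0.37 and -0.31 with its neighbours at 0.22, and the neighbours of TAGLN lie at -0.56.

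The levels of neighbouring genes were set beside these differences between the clones. Positions are those of GENCODE on GRCh38, and 16578 of the tested genes could be placed by symbol. TAGLN lies at chr11:117199370-117207464, and its 20 nearest tested genes, 10 on each side, had a median of -0.56 under vehicle and -0.55 under TGFβ1, with 11 lower and 1 higher under vehicle. TAGLN itself gave -0.03 and -0.48, so it stood above its surroundings under vehicle and near them under TGFβ1. TPM2, at chr9:35681992-35690056, lay among genes with a median of 0.25 and 0.29, of which 12 were higher and 1 lower under vehicle. Of all genes, 25.0% were higher and 26.5% lower under vehicle. ACTN1, at chr14:68874128-68979440, was lower in the S134A-GR line while its neighbours had a median of 0.22 and 0.23. ACTA2 (chr10:88935074-88991339) and CNN1 (chr19:11538767-11550323) were higher under vehicle while their neighbours had medians of -0.17 and -0.10. For CNN2, TPM1, TPM4, MYL9 and CALD1 the medians under vehicle lay between -0.105 and 0.0582. The copy number of these loci was not tested.

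Some of these genes share transcribed sequence with others, and the setting for strand is not given in the sources used here. Of all 75-base stretches of the annotated transcripts, 44.9% of those of TAGLN were found in transcripts of other genes on either strand, among them PCSK7, and 31% of those of ACTA2, among them ACTA2-AS1 and FAS. For TPM1 the share was 18.2%, mainly with TPM1-AS, for CNN2 it was 6.37% and for TPM4 5.48%, and for CNN1, TPM2, MYL9 and CALD1 it was 0. PCSK7 gave -0.55 and -0.53 between the lines under vehicle and TGFβ1, and its TGFβ1 responses were 0.04 and 0.06 (adjusted p = 0.829 and 0.708). FAS was higher in S134A-GR cells by 0.91 and 0.96, in the direction of ACTA2, and its TGFβ1 responses of -0.22 and -0.17 were not called. Reads from a shared stretch cannot be assigned to a gene or to its overlapping partner here, and the number of such reads was not measured.

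Other genes of the same machinery were taken from lists. Of 11 other actins and thin-filament proteins, 5 rose under TGFβ1 in wt-GR cells (SMTN, ACTG1, TAGLN2, CNN3 and ACTB) and none fell, while in S134A-GR cells 4 rose and 1, LMOD1, fell. Of all genes, 11.2% rose and 9.82% fell in wt-GR cells, and 10.0% rose and 8.69% fell in S134A-GR cells. The medians of the list were 0.21 and 0.14. ACTB, the main non-muscle actin, rose by 0.21 (adjusted p = 0.00172) and 0.14 (adjusted p = 0.021), and ACTG1, the other one, rose by 0.20 (adjusted p = 0.00145) and 0.19 (adjusted p = 0.00331). The call of ACTB in S134A-GR cells was lost without S134A-GR Veh replicate 2 or 3 or S134A-GR TGFβ1 replicate 1 or 3 (adjusted p = 0.0519 to 0.103). LMOD1, leiomodin of smooth muscle, measured 48.1, 61.8 and 70.4 in S134A-GR Veh and 15.2, 37.5 and 27.9 in S134A-GR TGFβ1 (log2 fold change -1.20, adjusted p = 0.0296). That call was lost without the same 4 libraries (adjusted p = 0.0529 to 0.122), and its value for wt-GR, -0.99, was called only without wt-GR Veh replicate 3 or S134A-GR TGFβ1 replicate 1 (adjusted p = 0.0355 to 0.0421). Between the lines 1 gene of this list was higher and 4 lower under each treatment. Of all genes, 25.0% were higher and 26.5% lower under vehicle, and 23.1% and 25.7% under TGFβ1. The lower genes of the list included ACTG1 (-0.26 and -0.28) and ACTG2, whereas ACTB gave 0.07 and 0.01 and was not called. The number higher was 3 under vehicle without wt-GR Veh replicate 3, ACTB then being called, and 0 under TGFβ1 without wt-GR TGFβ1 replicate 2 or S134A-GR TGFβ1 replicate 2 or 3. ACTG2, the enteric smooth muscle actin, measured 11.4, 10.6 and 13.7 in wt-GR Veh and 0, 0 and 1.78 in S134A-GR Veh, the last group being under the floor of 3 reads.

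Of 15 genes of myosin II and its control, 13 could be tested. Under TGFβ1 4 rose and 1 fell in wt-GR cells, where 11.2% and 9.82% of all genes did. In S134A-GR cells 2 rose and 1 fell, where 10.0% and 8.69% of all genes did. The falling gene in both lines was MYLK, the kinase that phosphorylates the myosin light chain, with changes of -0.51 and -0.46. MYH9, the major non-muscle myosin heavy chain, gave 0.08 and 0.09 and was not called, though without wt-GR Veh replicate 1 the first was (adjusted p = 0.0151). S134A-GR cells had 2 genes higher and 7 lower under vehicle, where 25.0% and 26.5% of all genes were. Under TGFβ1 they had 2 higher and 6 lower, where 23.1% and 25.7% of all genes were. MYH9 was among the lower ones at -0.31 and -0.30. RHOB, a small GTPase, measured 2390, 2542 and 2687 in wt-GR Veh and 1087, 1073 and 1053 in S134A-GR Veh. Its log2 fold change was -1.24 (adjusted p = 6.8e-10) under vehicle and -1.50 (adjusted p = 1.26e-10) under TGFβ1. The counts of this list under TGFβ1 in wt-GR cells were 5 higher and 4 lower without wt-GR Veh replicate 3, and 2 higher without wt-GR Veh replicate 2 or wt-GR TGFβ1 replicate 1 or 3. In S134A-GR cells the number higher ran from 1 to 3 and the number lower from 1 to 2 as single libraries were left out, and MYLK, like MYH9, differed among the wt-GR Veh libraries (6394, 5753 and 5030).

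Of 13 stress-fibre crosslinkers and anchors, 5 rose and 2 fell under TGFβ1 in wt-GR cells, and 8 rose and 1 fell in S134A-GR cells, beside the shares of all genes given above. Without wt-GR Veh replicate 1 the wt-GR counts were also 8 and 1, and as other single libraries were left out they were 5 higher and 1 to 3 lower, with 6 to 8 higher in S134A-GR cells. The difference between 5 and 8 was not tested. PALLD, palladin, rose by 0.48 and 0.47, and PDLIM7, a PDZ and LIM protein of stress fibres, by 0.75 and 0.54. The list was mixed between the lines, with 5 higher and 2 lower under vehicle (4 and 4 without wt-GR Veh replicate 3) and 4 higher and 3 lower under TGFβ1. Of all genes, 25.0% were higher and 26.5% lower under vehicle, and 23.1% and 25.7% under TGFβ1. PALLD and PDLIM7 were picked as examples after their values were seen.

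SRF itself, the factor that binds the CArG box, measured 9387, 9609 and 9481 in wt-GR Veh and 11320, 10553 and 10463 in wt-GR TGFβ1. In S134A-GR cells it measured 8107, 7924 and 8088 under vehicle and 8851, 8415 and 8751 under TGFβ1. It rose in wt-GR cells by 0.18 (adjusted p = 0.00234), and in S134A-GR cells it gave 0.11 (adjusted p = 0.0518), which passed without wt-GR Veh replicate 3, wt-GR TGFβ1 replicate 1 or S134A-GR TGFβ1 replicate 2 (adjusted p = 0.0333 to 0.049). All S134A-GR libraries lay below all wt-GR libraries, at -0.24 (adjusted p = 7.11e-05) under vehicle and -0.31 (adjusted p = 6.45e-06) under TGFβ1. MRTFA, a coactivator of SRF listed under its older symbol, rose by 0.44 and 0.38 (adjusted p = 0.000119 and 0.000475) and did not pass between the lines. MRTFB was higher in S134A-GR cells by 0.32 (adjusted p = 0.0383) and 0.46 (adjusted p = 0.00478). Under vehicle its libraries overlapped (3508, 2596 and 2218 in wt-GR, 3369, 3262 and 3544 in S134A-GR), and the call was lost without wt-GR Veh replicate 2 or 3 or any 1 S134A-GR Veh library (adjusted p = 0.0557 to 0.18). These are mRNA levels, and the place of the MRTF proteins in the cell was not measured.

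**Figure D5:**
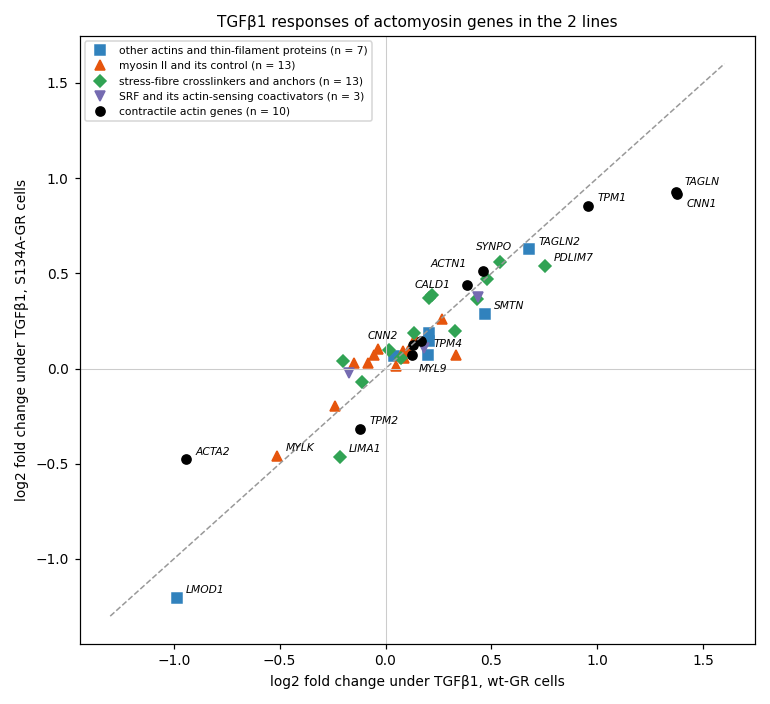
Log2 fold change under TGFβ1 for wt-GR (horizontal) and S134A-GR cells (vertical) for the 10 contractile genes (black) and for 36 genes of the other lists whose highest group mean was at least 20 normalized counts; the dashed line marks equal responses. TAGLN and CNN1 lie below the line at 1.37 and 1.38 against 0.93 and 0.92, ACTN1 and CALD1 lie close to it, and ACTA2 and LMOD1 lie at the lower left.

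Markers of smooth muscle and fibroblasts were counted because cells of those types would carry the same genes. Of 8 listed, 6 were measured, and MYH11 and MYOCD were not analysed here. Their summed level ran from 2249 to 2368 in wt-GR Veh, 3869 to 4143 in wt-GR TGFβ1, 2026 to 2151 in S134A-GR Veh and 2161 to 2417 in S134A-GR TGFβ1. Nearly all of it was PDGFRB, and the other 5 genes together ran from 137.9 to 191.3, 137.5 to 151.6, 166.2 to 212 and 120.2 to 139.7. The fibroblast markers DCN and LUM were at or near 0, no higher than 4.44 normalized counts in any library. DES, desmin of muscle, stood lower in the S134A-GR line (-1.24 under vehicle, adjusted p = 0.00115; -1.50 under TGFβ1, adjusted p = 0.00028), and SYNPO2 was higher (1.24, adjusted p = 0.000845; 1.27, adjusted p = 0.000767). Under TGFβ1 1 of the 6 rose and none fell in wt-GR cells, while 1 rose and 1 fell in the S134A-GR line. As single libraries were left out, 0 to 1 rose and 0 to 1 fell in the S134A-GR line. In wt-GR cells 1 rose and 0 to 2 fell in those fits. The shares of all genes are given above.

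Over the 4 group means ACTA2 had the widest span, 1.77 on the log2 scale, followed by CNN1 with 1.75. The genes most like them over the 12 libraries were sought among 12468 genes with a mean of at least 100 normalized counts, by the root mean square difference of log2 values after each gene was centred on its own mean. For ACTA2 they were AKAP6 (0.268), LOC100130705 (0.27) and SLC25A27 (0.279). AKAP6 had group means of 283 in wt-GR Veh, 170.4 in wt-GR TGFβ1, 516 in S134A-GR Veh and 406 in S134A-GR TGFβ1, lower under TGFβ1 and higher in S134A-GR cells as ACTA2 was. For CNN1 they were SPHK1 (0.194), KRT81 (0.22) and TUFT1 (0.222). SPHK1 had means of 2634, 6258, 3908 and 9391 in the same order, rising under TGFβ1 in both lines from a higher start in S134A-GR cells.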

How the data were processed

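RNA-seq of 12 libraries was analysed, 3 in each of 4 groups taken from the labels. The deposited values are a normalized signal per gene, which the authors made by aligning trimmed reads to hg38 with HISAT2, counting them with featureCounts and dividing by a size factor from DESeq2 1.22.2 (per the labels); FastQC 0.11.7 is named there too. The annotation and strand setting of the counting are not given in the sources used here. Dividing out the step of 1 read gave whole numbers for 100% of values (within 0.01), so reads and depth were recovered. Genes with at least 10 reads over all libraries were tested with limma 3.58.1 (R 4.3.3) on log2(value + 1), with all 12 libraries in 1 model of group means and a trended prior, and Benjamini-Hochberg adjustment over all genes. Fold changes are on that scale and understate those of rare genes. The alternatives used the recovered reads (edgeR 4.0.16, DESeq2 1.42.0, TMM), other pseudocounts, filters and fits, and each library left out. The scripts were tested on simulated data. Intervals and floors cover the spread between libraries or counting error only. The 10 genes and all lists were chosen with earlier results of these data known. Text names every member, listed genes past an adjusted p of 0.05 that changed by 1 or more on the log2 scale, and SRF, MRTFA, MRTFB, ACTB, ACTG1, MYH9 and TPM3. Other genes named from the lists were chosen after their values were seen.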

Additional observations from a re-analysis of the deposited data

Results flagged for a closer look

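Of the listed genes outside the 10, LIMA1, PDGFRB and PMEPA1 had TGFβ1 responses that differed between the lines by the interaction test (limma, Benjamini-Hochberg). LIMA1, an actin-bundling protein, fell in both lines, more so in the S134A-GR line, with an interaction of -0.248 (adjusted p = 0.0188). That call was lost on leaving out any 1 of 7 libraries (adjusted p = 0.0505 to 0.0756): wt-GR Veh replicate 2, each wt-GR TGFβ1 library, S134A-GR Veh replicates 2 and 3, and S134A-GR TGFβ1 replicate 2. It measured 14784, 14543 and 15122 in wt-GR Veh, 12636, 12717 and 12900 in wt-GR TGFβ1, 17518, 17691 and 18085 in S134A-GR Veh, and 12940, 12728 and 12966 in S134A-GR TGFβ1, so that the lines differed under vehicle and came together under TGFβ1. PDGFRB, a growth factor receptor, rose by 0.86 (wt-GR) and 0.18 (S134A-GR), an interaction of -0.680 (adjusted p = 0.000909). The call of its rise in S134A-GR cells was lost without S134A-GR Veh replicate 1 or S134A-GR TGFβ1 replicate 1 or 2 (adjusted p = 0.0544 to 0.0967). PMEPA1, a feedback inhibitor of TGFβ signaling, rose by 2.90 and 2.18, an interaction of -0.717 (adjusted p = 0.000909). All 3 were named after their values were seen.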

How the results depend on the processing

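With a filter on a mean of at least 100 normalized counts, ACTA2 and CNN1 were no longer tested, so between the lines 1 of 8 genes was higher for S134A-GR under vehicle (31.5% of all genes), 1 under TGFβ1 (30.1%), and 0 were lower under TGFβ1 in wt-GR cells (14.4%). DESeq2 called 1 gene, TAGLN, with a smaller response in S134A-GR cells, as were 0.614% of all genes against 0.248% by limma. With single libraries left out, the genes lower under TGFβ1 in wt-GR cells numbered 0 to 1, and those with a smaller response in S134A-GR cells 0 to 1. Signs turned, with single libraries left out, for values that were not called: TAGLN under vehicle between the lines (-0.0928 to 0.0724), MYL9 under vehicle (-0.00512 to 0.0816) and under TGFβ1 (-0.0812 to 0.0203), and the interaction of CNN2 (-0.0284 to 0.0377) and TPM2 (-0.369 to 0.0976). The interaction of TPM2, -0.20 with all libraries, turned only without S134A-GR TGFβ1 replicate 1. The cause was not tested. Of the values for single genes, 564 kept their direction and call with a library left out and 25 lost the call, while 473 kept both under the other alternatives and 6 lost the call. All 6 were of CNN2: without a trended prior under TGFβ1 in both lines and between the lines under vehicle, with TMM scaling between the lines under vehicle (adjusted p = 0.0516), and in a fit of only the groups compared for the latter (adjusted p = 0.0722) and under TGFβ1 in S134A-GR cells (adjusted p = 0.111). A fit of only the groups compared gives no interaction. Libraries with the same replicate number did not deviate together (mean r 0.000891 over 18 pairs, -0.155 to 0.154), and the replicate block changed no count of the 10 genes called. Depth limits ACTA2 and CNN1 most.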
